A study of Mus musculus with 2 samples.

Results

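The cells described here were the interferon-signature-high cells among CD4 T cells that recognise the peptide 2W1S, a model antigen carried by a recombinant strain of the gut-colonizing yeast Candida albicans. Each cell was given a score, the mean deposited log2 value of the interferon-induced genes Ifi27l2a, Slfn5, Rtp4, Irf7, Ifi213, Zbp1, Igtp and Ifi47. Within each capture the upper tertile by score was set against the remaining cells. This gave 59 interferon-high cells of 178 in all, 27 of 82 in the March capture and 32 of 96 in the April capture, against 119 remaining cells. All cells came from spleen and peripheral lymph nodes of colonized C57BL/6 mice, so both captures belong to 1 group with the same treatment, and no uncolonized group was analysed here. The labels do not give the age or number of the mice. The cells were captured and amplified one by one on a Fluidigm C1 instrument with a SMART-Seq v4 kit, which reads whole transcripts without molecular identifiers. Values are log2(value + 1), where the value is an expression level scaled to nearly the same total in each cell. The number of reads behind a value is unknown.

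Interferons are cytokines that act through cell-surface receptors and the kinases Jak1, Jak2 and Tyk2. Type I interferons lead to a complex with Stat2 and Irf9 that binds interferon-stimulated response elements in promoters, and interferon gamma acts through gamma-activated sites. The target genes include inhibitors of viral replication, GTPases that act on compartments holding pathogens, and the machinery that presents peptides on MHC class I. Resting and memory T cells express some of these genes at a low level and raise them on exposure to interferon.

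The score ran on without a gap at the threshold. The threshold was set by rank, so this does not show whether a separate population lies at higher scores. In March the interferon-high cells had scores of 2.93 at the lowest, 3.87 at the median and 6.86 at the highest, and the remaining cells 0.33, 1.72 and 2.90. In April the interferon-high cells had 2.93, 3.51 and 7.63, and the remaining cells 0.22, 1.80 and 2.91. The lowest member and the highest non-member stood at 2.93 and 2.90 in March and at 2.93 and 2.91 in April. Within 0.25 of the threshold lay 6 members and 3 non-members in March, and 8 and 7 in April. The members are therefore a range of a score, and cells near the threshold differ little from those on its other side.

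**Figure D1:**
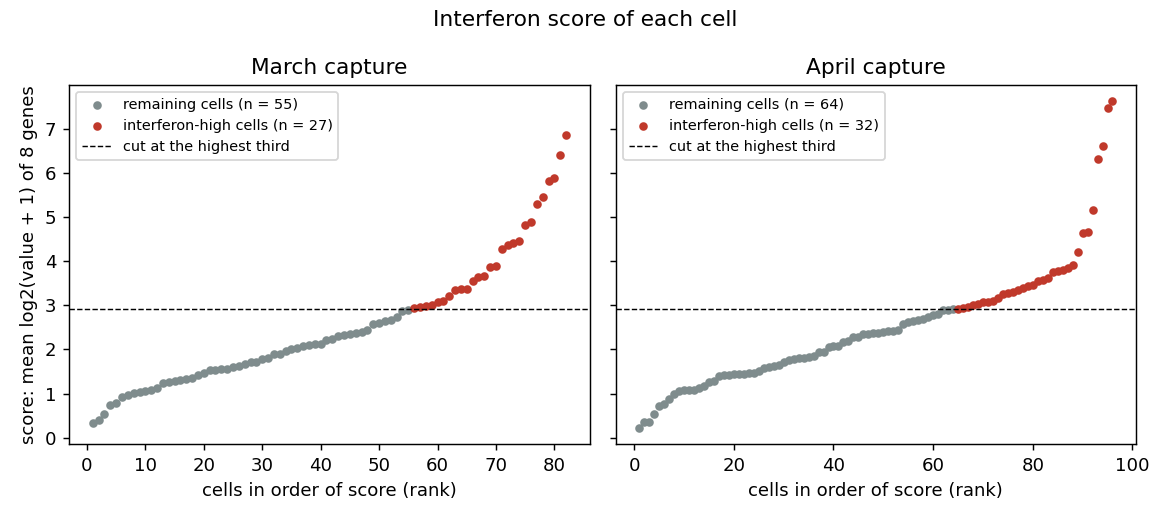
Score of each cell (vertical axis, mean log2(value + 1) of 8 genes) against its rank (horizontal axis) in the March and April captures, with interferon-high cells in red, remaining cells in grey and the threshold as a dashed line. Scores run on without a gap at the threshold and reach 6.86 in March and 7.63 in April.

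Members were found in all 4 runs that the cell names show. They made up 7 of 25 cells in the run Mar1 (28.0%, exact Clopper-Pearson 95% interval 12.1% to 49.4%) and 20 of 57 in Mar17 (35.1%, 22.9% to 48.9%). In April they were 20 of 48 in Apr13 (41.7%, 27.6% to 56.8%) and 12 of 48 in Apr21 (25%, 13.6% to 39.6%). These intervals overlap and cover counting error only. The median number of genes detected was 5415 in members and 5294 in the remaining cells of March, and 4936.5 and 4932 in April, so depth of detection differed little between the classes. The 3 cells whose signal was mostly mitochondrial, all in March, were among the remaining cells. No cell name occurred in both captures.

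The members carried different subsets of the 8 score genes. At a linear value of at least 1, members held a median of 5 of the 8 genes in March and 4 in April, against 3 in the remaining cells of each capture. Only 1 member, in March, held all 8. The correlation between pairs of score genes over the cells of a capture was low, with a median Pearson r of 0.125 over 28 pairs in March (82 cells) and 0.143 in April (96 cells). The highest value was 0.346, for Zbp1 and Igtp in April, and the lowest was -0.210, for Slfn5 and Igtp in April. These are descriptions of cells that share a capture.

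The values of the score genes chose the members, so they are given as a description with no test. Ifi47, an interferon-inducible GTPase of the IRG family (chromosome 11, positions 49076587 to 49096974, mm10), made the largest part of the score gap, 18.5% in March and 28.0% in April. Its median was 6.27 in March members against 0.65 in the remaining cells, and 8.31 against 0.74 in April. Some cells of every class were at 0, and the highest values, 12.32 and 11.06 in March and 11.69 and 10.73 in April, overlapped. Igtp, a GTPase of the same family (chromosome 11, positions 58199556 to 58207591), had a median of 1.77 against 0.67 in March and of 1.63 against 0.49 in April. It was at or above a linear value of 1 in 70.4% of members and 34.5% of remaining cells in March, and in 53.1% and 28.1% in April.

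Ifi27l2a, a small hydrophobic interferon-induced protein (chromosome 12, positions 103442167 to 103443680), was above 0 in every member. Of the remaining cells 54 of 55 in March and 57 of 64 in April were above 0. Its median was 10.58 in March members and 6.24 in the remaining cells, and 11.05 and 7.54 in April. The lowest members stood at 1.69 in March and 5.62 in April, while the highest remaining cells reached 12.18 and 13.00, so the classes overlapped. Rtp4, of the receptor transporter protein family and induced by interferon (chromosome 16, positions 23520291 to 23614222), was at or above a linear value of 1 in 11 of 27 March members and 7 of 55 remaining cells. In April it did so in 11 of 32 members and 3 of 64 remaining cells, of which the highest stood at 1.32.

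The other score genes separated the classes unequally in the captures. Irf7, the transcription factor that amplifies type I interferon production (chromosome 7, positions 141262706 to 141266481), had means of 3.61 and 1.22 in March and of 2.26 and 1.51 in April. Ifi213, of the IFI200 family of DNA-binding proteins (chromosome 1, positions 173566283 to 173599274), had means of 3.07 and 0.41 in March and of 0.86 and 0.44 in April. Slfn5, a Schlafen protein (chromosome 11, positions 82951349 to 82964840), had means of 3.11 and 1.36 in March and of 2.26 and 1.81 in April. Zbp1, a sensor of Z-form nucleic acids (chromosome 2, positions 173206612 to 173218923), was the reverse, with means of 1.28 and 0.39 in March and of 2.24 and 0.32 in April. Single runs carried part of this. In members Zbp1 had a mean of 3.54 in Apr13 and 0.08 in Apr21, against 1.73 in Mar17 and 0 in Mar1. Ifi213 had 3.73 in Mar17 and 1.18 in Mar1, against 0.61 in Apr13 and 1.27 in Apr21.

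To read each score gene where it had no part in the choice, cells were chosen again on the other 7 genes. Rtp4 then had means of 2.61 in the high cells and 0.68 in the rest in March, and of 2.10 and 0.42 in April, a difference of 1.93 and 1.68. Ifi27l2a differed by 1.94 and 1.88. Both were therefore higher, in each capture, in cells chosen on other interferon genes. Ifi213 differed by 1.85 in March and 0.26 in April, and Ifi47 by 1.49 and 0.79. Irf7 differed by 1.02 and 0.31, and Zbp1 by 0.34 and 0.98. Igtp differed by 2.09 in March and by -0.01 in April, and Slfn5 by 0.82 and -0.03. Every gene was thus higher in March, and all but Igtp and Slfn5 in April. These are values of 2 captures with no test.

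**Figure D2:**
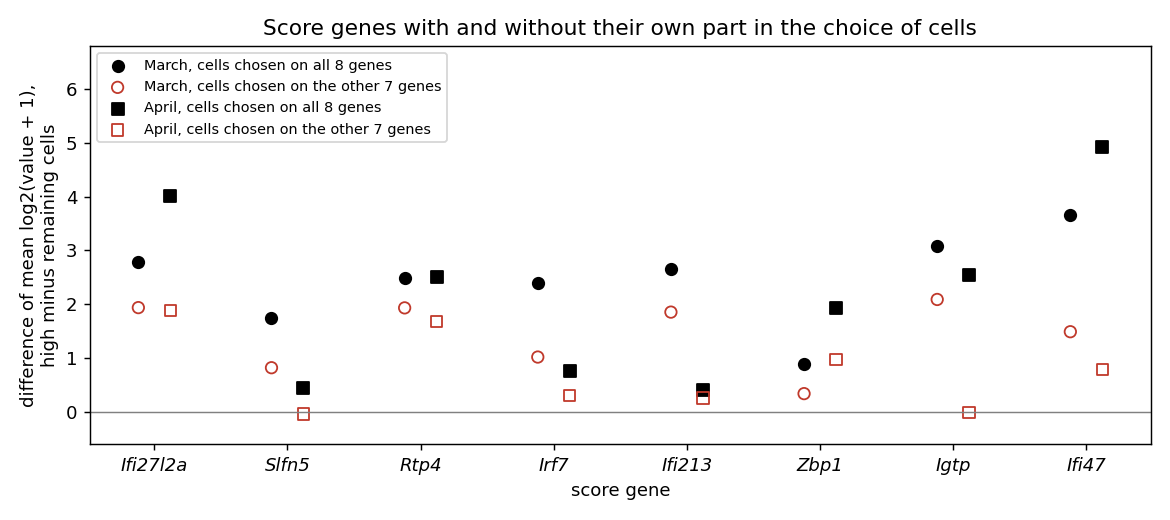
Difference of mean log2(value + 1) between high and remaining cells (vertical axis) for each score gene (horizontal axis), in March (circles) and April (squares), with cells chosen on all 8 genes (filled) or on the 7 others (open). Without their own part in the choice Rtp4 and Ifi27l2a differ by 1.68 to 1.94, and Igtp and Slfn5 in April lie at -0.01 and -0.03.

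The GTPases and the remaining score genes also marked partly different cells. The upper tertile by Ifi27l2a, Slfn5, Rtp4, Irf7, Ifi213 and Zbp1 shared 28 of 59 cells with the upper tertile by Igtp and Ifi47, which is 47.5% of each set. In the cells chosen on those 6 genes, Igtp was higher by 1.98 in March and 1.26 in April, and Ifi47 by 2.17 and 1.23. In the cells chosen on the 2 GTPases, Rtp4 was higher by 1.40 and 1.22, Ifi27l2a by 0.85 and 2.85 and Zbp1 by 0.54 and 1.17. Slfn5 went another way, with 0.04 in March and -0.88 in April. Irf7 lay between, with 0.17 and 0.49.

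Some promoters are shown because interferon acts through short response elements there, and they were picked among those that hold a match. They are stretches of 150 bases before the RefSeq start of the gene, 5′ to 3′ on the gene's strand, on GRCm38.p6, the mm10 assembly. Distances are counted from this start, which can differ from the ends of the gene positions given here, taken from GENCODE. Capitals mark matches to GAAANNGAAA, the core of an interferon-stimulated response element, or to its reverse complement TTTCNNTTTC. Igtp and Ifi213 are score genes, while Ifit1 and Ifi206 had no part in the choice of cells.
Igtp (chr11:58199406-58199555, + strand): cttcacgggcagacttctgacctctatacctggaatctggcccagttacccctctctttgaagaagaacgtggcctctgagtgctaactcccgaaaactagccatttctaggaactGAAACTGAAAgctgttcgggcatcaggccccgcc
Ifi213 (chr1:173599273-173599422, - strand): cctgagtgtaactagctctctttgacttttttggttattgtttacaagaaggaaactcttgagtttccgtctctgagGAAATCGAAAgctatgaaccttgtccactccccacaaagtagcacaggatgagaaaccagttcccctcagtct
Ifit1 (chr19:34640739-34640888, + strand): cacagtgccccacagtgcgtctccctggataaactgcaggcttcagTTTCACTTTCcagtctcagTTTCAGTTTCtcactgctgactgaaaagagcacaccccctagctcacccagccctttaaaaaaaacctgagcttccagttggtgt
Ifi206 (chr1:173491319-173491468, - strand): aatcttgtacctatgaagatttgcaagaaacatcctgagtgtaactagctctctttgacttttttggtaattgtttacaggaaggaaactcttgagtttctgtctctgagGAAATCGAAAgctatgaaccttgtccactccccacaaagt

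The Igtp match starts 34 bases before the gene, and a match to TTCNNNGAA, the core of a gamma-activated site, starts 45 bases before it and overlaps it by no base. In Ifit1 a pair of matches in the reverse orientation starts 104 bases before the gene. Ifi213 and Ifi206, both of the IFI200 family on chromosome 1, carry the same letters GAAATCGAAA, 73 and 40 bases before their starts. Irgm1, a GTPase described further on, holds 2 overlapping matches in the stretch GAAATAGAAACCGAAA, which starts 30 bases before its RefSeq start. The window before that start, 48871421 to 48871570, lies inside the gene positions given further on. In the window from 250 bases before to 50 bases after the start, searched on both strands, GAAANNGAAA was found in 3.44% of all 32851 promoters. It was found in 4.04% of the 7691 tested genes with a promoter sequence. Of the type I interferon-stimulated genes outside the score, 26 of 64 with a sequence held it (40.6%), and of the GTPases outside the score 8 of 9. TTCNNNGAA, which reads the same on both strands and does not contain the other motif, was in 8.30% of all promoters, in 11 of 64 type I genes and in 5 of 9 GTPases. Of the score genes 3 of 5 with a sequence held GAAANNGAAA, and of the genes past the size rule described further on 8 of 44 (18.2%). Among these 8 were Irgm1, Ifit1, Ifi206, Trim34a, Phf11b, Erap1 and H2-T22, all members of the interferon or MHC class I lists. The 18.2% thus rests mostly on listed genes and does not describe the other genes past the size rule. Neither motif was found in the windows of Ifi47 and Irf7, and GAAANNGAAA was not found in those of Xaf1, Ms4a6b, Lgals3bp and Ifi35. Ifi27l2a, Rtp4, Zbp1 and Gvin1 were not matched in the promoter table. A match describes letters and is not a measured binding site.

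Gene expression was then compared between interferon-high and remaining cells across all other genes. Each class of each capture was averaged into 1 library of mean deposited log2 values, 4 libraries in all. The model in limma held class and capture, and 10787 genes above 0 in 10% of the cells or more were tested. Of these, 0 passed a Benjamini-Hochberg adjusted p of 0.05 (0% called in either direction), and the smallest adjusted p was 0.934. At an unadjusted p under 0.05 there were 538 genes (4.99%), 322 higher and 216 lower. Only 1 residual degree of freedom was left, so the standard errors rest mostly on the trend that limma fits over all genes. As a description of size, 59 genes (0.547%) were higher by at least 1 on the log2 scale in both captures and 14 (0.13%) were lower by at least 1 in both. A difference here is one of mean log2(value + 1), zeros included, and is not a fold change.

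**Figure D3:**
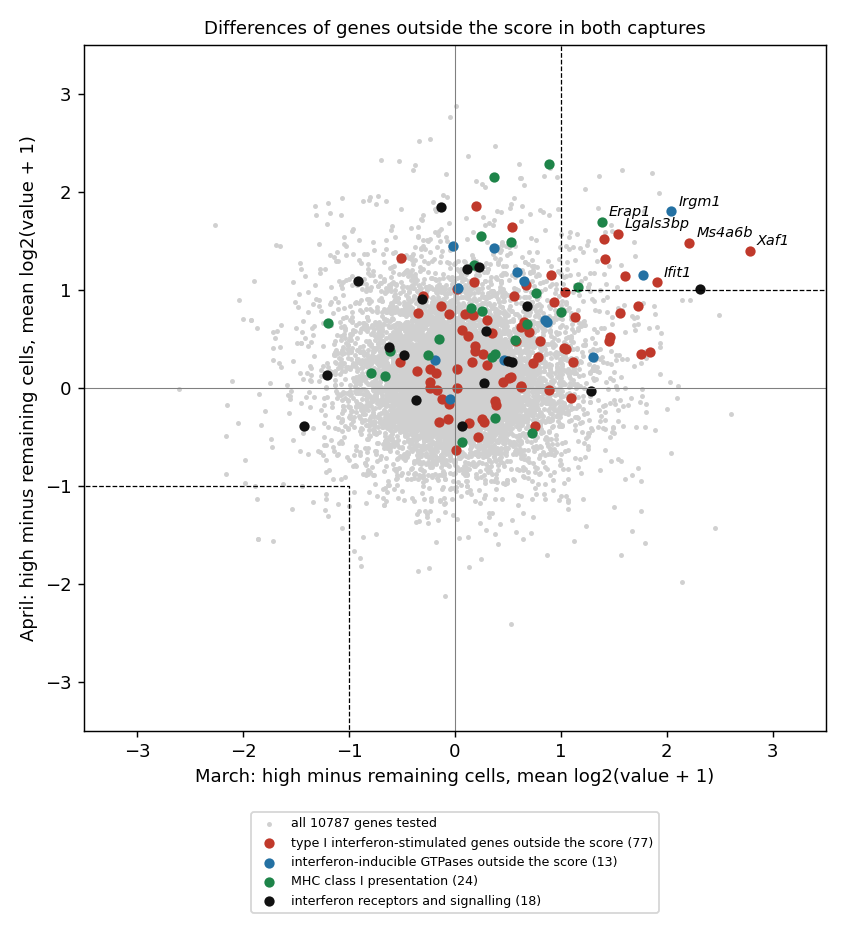
Difference of mean log2(value + 1) between interferon-high and remaining cells in March (horizontal axis) and April (vertical axis) for the 10787 genes tested (grey), with 4 gene lists in colour; dashed lines mark a difference of 1 in both captures. Xaf1, Irgm1, Ms4a6b, Ifit1, Lgals3bp and Erap1 lie past 1 in both captures, and none of them passed the adjusted test.

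The genes that interferon is known to induce stood higher in the members, as a list, than genes in general, though none passed the test singly. Of 94 type I interferon-stimulated genes outside the score, 80 were in the table and 77 were tested, of which 0 passed (0% of all genes). In both captures 50 of the 77 were higher (64.9%, against 27% of all genes tested) and 6 were lower (7.79%, against 23.1%). Their median difference was 0.39 in March and 0.40 in April, against -0.01 and 0.05 for all genes tested. At an unadjusted p under 0.05 in limma 19 were higher (24.7%, against 2.99%) and 0 lower (against 2%). By size 7 were past 1 in both captures (9.09%, against 0.547%). These shares are a description, since the list was chosen with results of these data known.

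The shift of the type I list was not the same in every run. Its median was 0.01 in Mar1, 0.41 in Mar17, 0.57 in Apr13 and -0.08 in Apr21, where all genes had medians of -0.02, -0.05, 0.08 and -0.06. In Mar17 80.5% of the list was higher and in Apr13 81.8%, against 51.9% in Mar1 and 46.8% in Apr21. With cells chosen again without Mar17 the list median over both captures was 0.17, against 0.43 with all runs. The runs Mar17 and Apr13 held 20 members each and Mar1 and Apr21 held 7 and 12.

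The 7 type I genes past the size rule were Xaf1, Ms4a6b, Lgals3bp, Ifit1, Ifi35, Trim34a and Phf11b. Xaf1, a promoter of apoptosis induced by interferon (chromosome 11, positions 72301629 to 72313733), had values of 0.36 at the lowest, 5.83 at the median and 10.97 at the highest in March members. The remaining March cells had 0, 2.06 and 11.55. In April the members had 0, 4.07 and 11.06 and the remaining cells 0, 2.39 and 10.37. The medians were higher in the members of both captures while the ranges overlapped almost fully. The difference of Xaf1 was 2.79 in March and 1.40 in April, with a mean of 2.09 ± 0.52 (SE) and an adjusted p of 0.934 in limma. By run it was 1.21 in Mar1, 3.38 in Mar17, 2.30 in Apr13 and 0.14 in Apr21.

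Ms4a6b, a membrane protein of lymphocytes (chromosome 19, positions 11516512 to 11531256), was abundant in both classes. Its lowest, median and highest values were 0.27, 10.34 and 12.04 in March members and 0.62, 6.08 and 13.06 in the remaining cells. In April they were 2.42, 8.59 and 11.53 in members and 0.29, 7.85 and 11.80 in the remaining cells. The medians differed more in March than in April. Its mean difference was 1.85 ± 0.44 (SE), with the same sign in all 4 runs and between 1.20 and 2.54.

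Ifit1, which binds viral RNA that lacks the host cap (chromosome 19, positions 34640871 to 34650009), reached a linear value of 1 in few cells. It was at or above a linear value of 1 in 8 of 27 March members (29.6%, 13.8% to 50.2%) and 2 of 55 remaining cells (3.64%, 0.443% to 12.5%). In April it did so in 5 of 32 members (15.6%, 5.28% to 32.8%) and 6 of 64 remaining cells (9.38%, 3.52% to 19.3%). These intervals cover counting error over cells that share a capture and are no test between the classes. Any value above 0 was found in 48.1% of March members and 36.4% of remaining cells. In April it was found in 53.1% of each class. In members at or above a linear value of 1 the median was 7.17 in March and 9.25 in April, so a minority of cells carried Ifit1 at a high level. Its difference was 1.91 in March and 1.07 in April, and -0.19 in the run Apr21. With cells chosen again without Apr13 the mean difference of Ifit1 was 0.81, against 1.49 with all runs.

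Lgals3bp, a secreted glycoprotein (chromosome 11, positions 118392751 to 118402092), differed by 1.54 in March and 1.57 in April, with 0.13 in Mar1 and -0.50 in Apr21. Its mean difference, 1.55, was 0.58 without Mar17 and 0.37 without Apr13. Ifi35, an interferon-induced leucine zipper protein (chromosome 11, positions 101448407 to 101458698), differed by 1.41 and 1.51, and by 1.28 to 1.73 in the 4 runs. Of the 7 genes Ifi35 varied least over the runs. Trim34a, of the tripartite motif family, differed by 1.61 and 1.14, and Phf11b, a PHD finger protein, by 1.42 and 1.31. The mean difference of Phf11b, 1.37, was 2.50 without Mar17 and 0.77 without Apr13. Trim34a and Phf11b have close paralogs, and reads shared with them could have been split by the authors' counting. Of the type I genes fixed for naming, Isg15, a ubiquitin-like modifier, differed by 0.74 and 0.26, and Ly6e, a restrictor of virus entry, by 0.67 and 1.05, with -1.83 in Mar1. Bst2, the tether of budding virions, differed by 0.18 and 1.08, and Ly6a by 0.89 and -0.03. In Mar1 both were below 0, at -1.32 and -2.18.

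**Figure D4:**
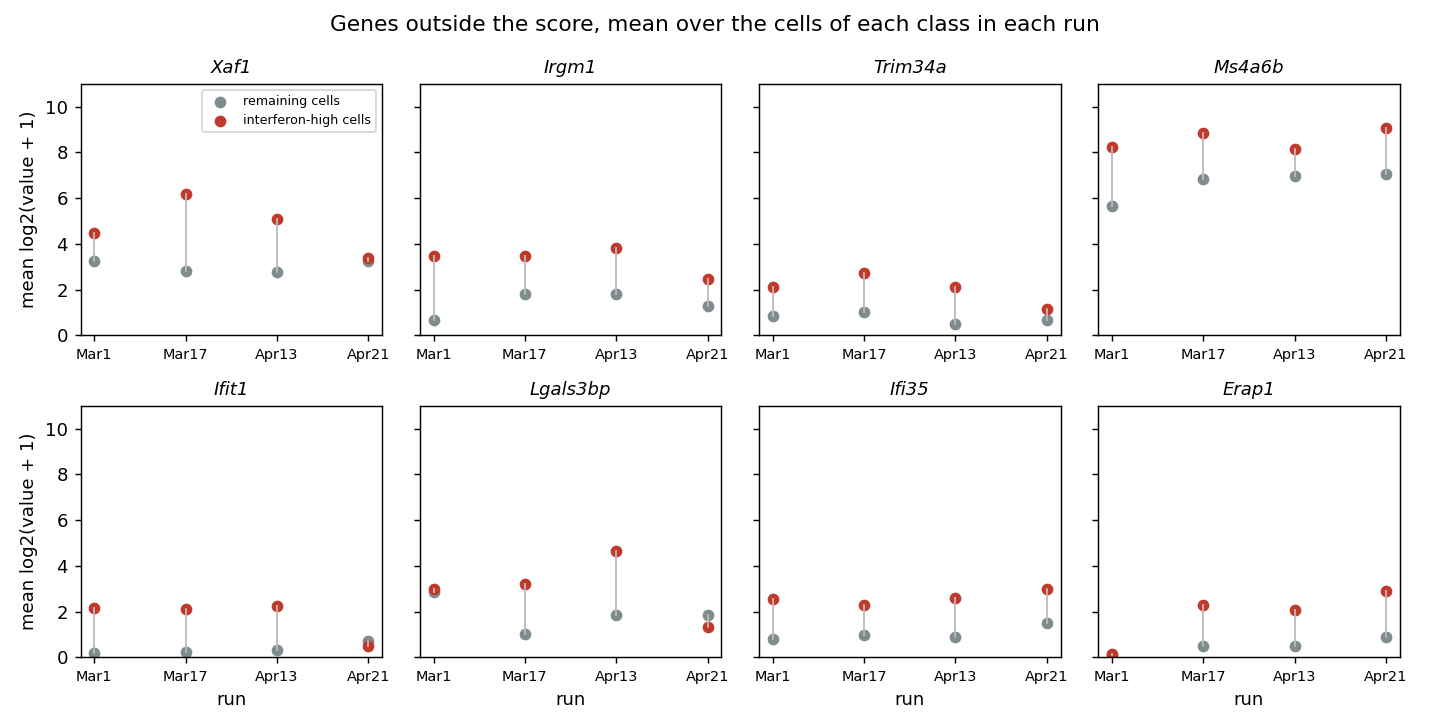
Mean log2(value + 1) (vertical axis) of 8 genes outside the score in interferon-high cells (red) and remaining cells (grey) of each run (horizontal axis). Ms4a6b and Ifi35 are apart in all 4 runs, while Xaf1, Ifit1 and Lgals3bp are close together or reversed in Apr21.

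Interferon-inducible GTPases outside the score also stood higher. Of 21 listed, 13 were tested and 0 passed; 10 were higher in both captures (76.9%, against 27% of all genes tested) and 1 was lower (7.69%, against 23.1%), and the median difference was 0.59 in March and 1.02 in April. At an unadjusted p under 0.05 in limma 6 were higher (46.2%, against 2.99%) and 0 lower. Irgm1, a regulator of the IRG GTPases and of autophagy (chromosome 11, positions 48861968 to 48871683), had values of 0 at the lowest, 1.29 at the median and 11.61 at the highest in March members. The remaining March cells had 0, 0.44 and 11.50. In April members had 0, 1.57 and 11.90 and remaining cells 0, 0.81 and 11.47. The classes overlapped over the whole range. At or above a linear value of 1 were 59.3% of members and 38.2% of remaining cells in March, and 56.25% and 39.1% in April. The difference of Irgm1 was 2.04 in March and 1.80 in April, with a mean of 1.92 ± 0.40 (SE) and an unadjusted p of 0.000805, which did not pass after adjustment in limma (0.934). It was higher in all 4 runs, by 2.83, 1.66, 2.02 and 1.18. Without Apr13 the mean difference of Irgm1 was 1.25.

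Gvin1, a very large interferon-inducible GTPase (chromosome 7, positions 106156556 to 106215326), differed by 1.77 in March and 1.15 in April, and by -0.35 in Apr21. Among the guanylate-binding proteins, which attack pathogen-holding vacuoles, Gbp2 differed by 0.59 and 1.18, Gbp9 by 0.65 and 1.09, Gbp8 by 0.85 and 0.69 and Gbp4 by 0.87 and 0.67. Tgtp1 differed by 1.31 and 0.31, and Irgq, the 1 member lower in both captures, by -0.05 and -0.11. With cells chosen again without the run Apr13 the median of the list was 0.16, against 0.77 with all runs. By run the median was 0.39 in Mar1, 0.73 in Mar17, 1.38 in Apr13 and 0.32 in Apr21. Gbp and Tgtp genes are families of near copies, so their values are uncertain where reads were shared.

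Relatives of the score genes gave mixed values. Of 7 tested IFI200 genes 6 were higher in both captures (85.7%, against 27% of all genes tested) and 1 lower, with a median of 1.35 in March and 0.39 in April. Ifi206 differed by 1.57 and 1.25, Ifi209 by 1.94 and 0.46, Ifi203 by 1.35 and 0.39 and Mndal by 1.53 and 0.28. As with Ifi213 itself, the differences of these DNA-binding proteins were larger in March, except for Ifi208 (-0.20 and -0.26) and Aim2, the DNA sensor of the inflammasome (0.35 and 0.81). The sign of Ifi206 was not the same in every run, with -1.02 in Mar1 and 2.50 in Mar17. Without Mar17 its mean difference was 0.049, against 1.41 with all runs. IFI200 genes are relatives of the score gene Ifi213, so their values are uncertain where reads were shared with it. Of 5 tested Schlafen genes, regulators of T cell quiescence among them, 4 were higher in both captures (80.0%, against 27%) and 1 lower (20%, against 23.1%). Slfn1 differed by 0.38 and 2.46, Slfn8 by 1.02 and 0.32, Slfn9 by 0.72 and 0.15 and Slfn2 by 0.59 and 0.25. The pseudogene Slfn10-ps differed by -0.63 and -0.18.

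The signalling parts were then read in order. The receptor chains had no shared direction: Ifnar1 differed by -0.31 in March and 0.91 in April, Ifnar2 by 0.54 and 0.26, Ifngr1 by -0.48 and 0.33 and Ifngr2 by 0.29 and 0.58. Stat2, a transcription factor of the type I pathway, differed by 0.68 and 0.84, with -0.68 in Mar1, and Irf9, which binds DNA with it, by 0.11 and 1.21. Of the 18 tested receptor and signalling genes 8 were higher in both captures (44.4%, against 27%) and 2 lower.

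The other interferon regulatory factors and the nucleic acid sensors did not share this direction as lists. Of 7 tested genes of regulatory factors or Irf2-binding proteins 2 were higher and 2 lower in both captures (28.6% each, against 27% and 23.1%). Irf1, induced by interferon gamma, differed by -0.19 and 1.11, Irf2 by 0.89 and 0.24 and Irf3 by -0.97 and -0.24. Irf2bpl, named as an Irf2-binding protein and not itself such a factor, differed by -1.0 and -0.74 and was 1 of the 2 lower. Of 24 tested sensing genes 10 were higher and 10 lower in both captures (41.7% each, against 27% and 23.1% of all genes). Their median was 0.00 in March and 0.05 in April. Tbk1, the kinase that activates Irf3, differed by -2.16 and -0.50, and Fadd, a death-receptor adaptor, by -0.65 and -0.57. Trim25, the ubiquitin ligase of RNA sensing, differed by 0.20 and 1.86 and Adar, the RNA editor, by 1.11 and 0.26. Both are also on the type I list, so the sensing and type I lists share members.

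Genes of MHC class I presentation, which interferon raises in most cells, stood higher in the members. Of 24 tested, 0 passed, 15 were higher in both captures (62.5%, against 27%) and 0 lower, with a median of 0.36 in March and 0.65 in April. By run the median was 0.71 in Mar1, 0.08 in Mar17, 0.95 in Apr13 and 0.05 in Apr21. With cells chosen again without Apr13 it was 0.31, against 0.50 with all runs. Erap1, the aminopeptidase that trims peptides in the endoplasmic reticulum (chromosome 13, positions 74639568 to 74693201), was at or above a linear value of 1 in 7 of 27 March members (25.9%, 11.1% to 46.3%) and 3 of 55 remaining cells (5.45%, 1.14% to 15.1%). In April it did so in 11 of 32 members (34.4%, 18.6% to 53.2%) and 6 of 64 remaining cells (9.38%, 3.52% to 19.3%). The difference of Erap1 was 1.39 and 1.69, with a mean of 1.54 ± 0.33 (SE) and an unadjusted p of 0.000987 in limma. It was higher in all 4 runs, by 0.07 in Mar1 and 1.62 to 2.03 in the others. Without Mar17 the mean difference of Erap1 was 0.87. Nlrc5, the transactivator of MHC class I genes, differed by 0.89 and 2.29, and Psmb8, an immunoproteasome subunit, by 0.37 and 2.15. The nonclassical H2-T22 differed by 1.16 and 1.02, and the classical H2-K1 and H2-D1 by 0.68 and 0.64 and by 0.57 and 0.49. B2m, the light chain, was abundant in all cells, with a lowest value of 7.03, and differed by 0.38 and 0.35. MHC class I genes are near copies of one another, and how the authors assigned shared reads is not given in the sources used here.

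Of the 59 genes past the size rule, 13 belonged to an interferon or MHC class I list, and the rest lay outside these lists. Past the rule were 9.09% of tested type I genes, 15.4% of GTPases and 14.3% of IFI200 genes. The share was 8.33% for MHC class I and 5.56% for receptors and signalling. It was 0% for Schlafen genes and regulatory factors, against 0.547% of all genes tested. Among the higher genes, the smallest p outside those lists, whether or not past the size rule, belonged to Gm11737 (2.02 ± 0.42 SE), Atxn10 (1.90 ± 0.40), C87436 (1.21 ± 0.29), the mitochondrial ribosomal protein Mrpl57 (1.5 ± 0.36), the ribosomal protein Rpl23a (1.32 ± 0.32), and the long noncoding RNA Tug1 (1.96 ± 0.47). Atxn10 was higher in all 4 runs, by 0.99 to 3.11, whereas Tug1 was at -0.10 in Mar1 and Gm11737 at -0.17 in Apr21. C87436, with 0.995 in March, and Rpl23a, with 0.868 in April, were not past the size rule. With cells chosen again without Mar17 the mean difference was 0.76 for Mrpl57 and 0.60 for Tug1, and for C87436 and Rpl23a it was 1.97 and 2.66. Without Mar1 it was 0.73 for Rpl23a. With the score without Igtp and Ifi47 it was 0.36 for Mrpl57. Of the lower genes the smallest p belonged to Prdx3, a mitochondrial peroxidase (-1.48 ± 0.36), Ei24 (-0.70 ± 0.17) and Cst7, a cysteine protease inhibitor of cytotoxic cells (-1.31 ± 0.34). After them came Rnf5, Taf15, Chmp1a, the phosphodiesterase gene Pde3b (-1.30 ± 0.35), Ovca2, Dnajc24 and Slc30a6. None of these passed in limma, and the smallest p among the lower genes was 0.00231. Prdx3 was at or above a linear value of 1 in 1 of 27 members and 17 of 55 remaining cells in March, and in 4 of 32 and 16 of 64 in April. Cst7 and Prdx3 had differences below 0 in all 4 runs. Without Mar17 the mean difference was -0.64 for Cst7 and -0.94 for Prdx3, and without Apr13 it was -0.85 for Pde3b. With the score without Igtp and Ifi47 it was -0.15 for Cst7. Of the genes past the size rule 4 had a row identical to that of another gene, among them mt-Nd4l and its nuclear copy Gm10222, so the counts of 59 and 14 hold 1 such pair each.

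States of CD4 T cells were read through further lists, in which 0 genes passed the test. Of 22 quiescence and trafficking genes 6 were higher in both captures (27.3%, against 27% of all genes tested) and 5 lower (22.7%, against 23.1%). Klf2, a transcription factor of quiescent recirculating T cells, had means of 2.63 in members and 1.54 in the remaining cells of March and of 1.99 and 1.23 in April, with -0.73 in the run Mar1. Tcf7, the factor of naive and memory cells, differed by 1.49 and 0.65, while Il7r differed by 1.47 and -0.50, S1pr1 by -0.09 and -1.27 and Ccr7 by -0.32 and 0.52. Klf2 and Tcf7 thus had the same sign in both captures, and Il7r and Ccr7 did not. Of 14 follicular helper genes 3 were higher and 3 lower (21.4% each, against 27% and 23.1%). Izumo1r, the folate receptor of regulatory and anergic T cells, had medians of 3.27 in members and 7.68 in remaining cells of March and of 6.00 and 8.35 in April, and had differences below 0 in all 4 runs, from -2.30 in Mar17 to -0.03 in Apr21. Bcl6, Cxcr5, Pdcd1, Foxp3 and Gata3 had opposite signs in March and April.

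Effector lists differed in how far their members shared a direction. Over all genes tested, 27% were higher and 23.1% lower in both captures. Of 22 activation genes 5 were higher (22.7%) and 4 lower (18.2%) in both captures, Cd44 and Cd69 with opposite signs. The S100 family genes S100a4, S100a10 and S100a11 differed by 1.03 and 1.13, by 0.92 and 1.15 and by 2.15 and 0.89. Of 10 Th1 genes 3 were higher (30%) and 1 lower (10%). Of 12 Th17 genes 6 were higher (50%) and 2 lower (16.7%), with Batf at 0.13 and 2.37. Of 7 Th2 genes 1 was higher and 1 lower (14.3% each). Of 14 regulatory T cell genes 3 were higher (21.4%) and 4 lower (28.6%). Of 21 proliferation genes 8 were higher (38.1%) and 3 lower (14.3%). Among them the replicative helicase subunit Mcm4 was at 1.07 and 1.54 and the chromatin protein Hmgb2 at 1.30 and 0.90. Of 21 genes of oxidative phosphorylation 7 were higher (33.3%) and 3 lower (14.3%). Of 13 dissociation stress genes 3 were higher (23.1%) and 2 lower (15.4%).

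**Figure D5:**
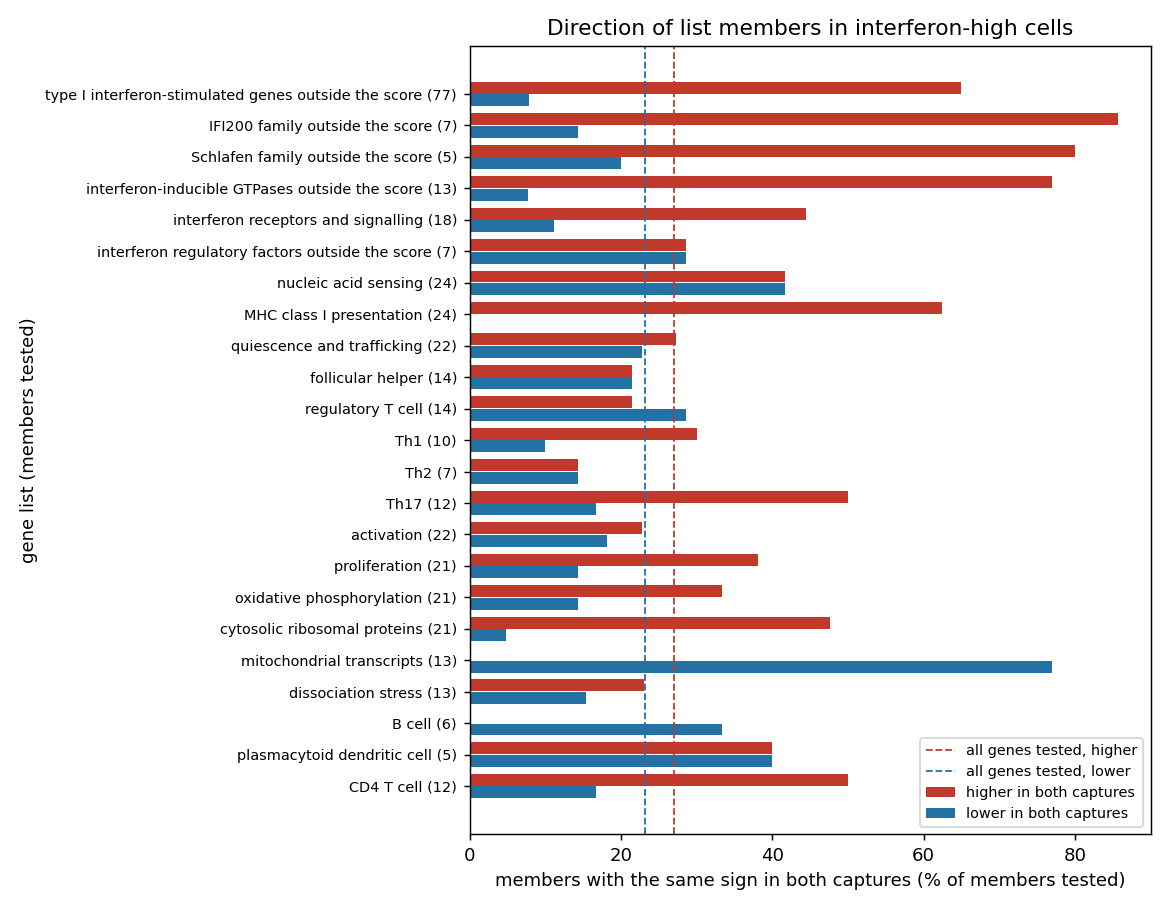
Share of the tested members of each gene list (vertical axis, number tested in brackets) that were higher (red) or lower (blue) in interferon-high cells in both captures, in percent (horizontal axis), for lists with 5 or more tested members; dashed lines give the shares over all genes tested, 27% higher and 23.1% lower. Type I interferon-stimulated genes reach 64.9% higher and mitochondrial transcripts 76.9% lower.

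Mitochondrial transcripts differed between the classes as a list. Of 13 tested, 0 were higher and 10 lower in both captures (76.9%, against 23.1%), with a median difference of -0.48 in March and -0.29 in April, and 0 passed. mt-Nd2, a subunit of complex I, had medians of 8.84 in members and 9.65 in the remaining cells of March and of 8.61 and 10.08 in April. By run its mean differed by -0.45 in Mar1, -1.51 in Mar17, -0.04 in Apr13 and -2.60 in Apr21. For mt-Nd4l the differences were -4.57, -0.79, -0.44 and -2.85, so the size depended on the run. The median share of mitochondrial signal was 6.5% in members and 7.65% in remaining cells of March and 7.09% and 9.19% in April. Without the 3 mostly mitochondrial cells, all among the remaining March cells, the type I list median was 0.40, against 0.43 with them. The mitochondrial list without these cells is not reported here. Of 21 cytosolic ribosomal protein genes 10 were higher in both captures (47.6%, against 27% of all genes tested) and 1 lower (4.76%, against 23.1%). The part of RNA quality in the differences of other genes was not tested.

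T cell identity was checked next. Cd3d and Cd3g were above 0 in every cell of both classes, and Cd3e in 26 of 27 March members, 31 of 32 April members and all remaining cells. Cd4 was at or above a linear value of 1 in 16 of 27 March members (59.3%, 38.8% to 77.6%) and 22 of 32 April members (68.8%, 50% to 83.9%). The remaining cells held it in 43 of 55 (78.2%) and 45 of 64 (70.3%). Of 12 CD4 T cell genes 6 were higher in both captures (50%, against 27% of all genes tested) and 2 lower (16.7%, against 23.1%). Markers of other cells were read by their sums. The median summed log2 value of the 7 B cell markers in the table was 4.52 in members and 5.10 in remaining cells of March, and 4.67 and 4.59 in April, with Cd79a and Ms4a1 not analysed here. In 1 class, the remaining March cells, the highest sum was 64.77, against 14.59 in the members. The 3 myeloid markers in the table, Csf1r, Itgam and Cst3, were all higher in members of both captures, with summed medians of 2.49 against 1.92 and of 2.41 against 2.02. Of 5 plasmacytoid dendritic cell markers 2 were higher and 2 lower (40% each, against 27% and 23.1% of all genes). Their summed medians were 3.53 in members against 3.26 in March, and 2.92 against 1.91 in April. The 5 NK or CD8 markers in the table had median sums of at most 0.24. Only 1 erythroid or platelet marker was in the table, Itga2b, with a median of 0 in each class. The part of such markers in the interferon differences was not tested.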

How the data were processed

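The authors deposited 1 table of log2 values for 12432 genes in 178 cells. The submitters' processing notes name the build mm10, and the sources used here name no aligner or counter. The linear values (2 to the power of the log2 value, minus 1) sum to between 892205 and 979887 per cell, so the deposited log2 values were read as log2(value + 1) of values scaled like TPM. Of the Ensembl IDs 12163 were matched to symbols and 269 were not; positions are from GENCODE vM21 (mm10). The March and April captures are replicates 1 and 2 of 1 group, and all cells were kept. No doublet caller was run, and no pair of cells held identical values. With capture as block, the p-values set a class difference against its variation between these 2 captures, estimated mostly from the trend over all genes. Nothing says that the captures came from separate mice, so that variation may be technical. The tertile was rounded to the nearest whole cell.

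Mean log2 values per capture and class were fitted with limma 3.58.1 (R 4.3.3; mean-variance trend, capture as block, two-sided, Benjamini-Hochberg over all genes tested), leaving out the 8 score genes. The fit was tested on simulated data. Capture pairs the classes, since each capture holds cells of both. Each capture joins cells of different runs, and the labels do not say that these shared a cell pool. The share of members differed between runs, so capture as block does not separate class from run. Exact Clopper-Pearson 95% intervals used SciPy 1.17.1 in Python 3.11.15 and cover counting error only. Genes were named by rule: the score genes, the 10 smallest p per direction with the same sign in both captures, members of the interferon lists past the test or the size rule (otherwise the 5 largest differences), 24 fixed regulators and up to 3 members of each other list; further members of the GTPase, IFI200, signalling and MHC class I lists were added after their values were seen. The members and lists were chosen with earlier results of these data known. Alternatives for the choice of cells, score, block, scaling, filter and runs were recomputed. Some genes that the naming rule covers are not reported here.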

Additional observations from a re-analysis of the deposited data

How the results depend on the processing

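The limma test called 0 genes in each of the 23 alternatives that leave a residual degree of freedom, including no replicate block and runs as blocks. It left 360 genes at an unadjusted p under 0.05 with no replicate block, against 538 with it. The medians of the type I, GTPase and MHC class I lists were above 0 in all 25 alternatives. The number of genes past the size rule was the least stable. It was 30 lower with 44 high cells and 3 lower with 89 high cells, 148 higher against the lowest tertile, 7 lower with the score from Igtp and Ifi47 only, 39 higher after quantile normalization and 92 higher with cells matched on genes detected. Averaging linear values gave 424 higher and 962 lower and moved the median of all genes to -0.15; a pseudocount of 10 gave 9 higher and 3 lower. Leaving out 1 capture, which by construction asks for 1 in a single capture, gave 415 to 497 higher and 132 to 269 lower. Chosen after seeing the data, leaving out runs gave 137 higher without Mar17, 27 lower without Apr13, and 106 higher and 26 lower without Apr21.

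The type I median, 0.43, was 0.30 with 89 high cells, 0.51 against the lowest tertile, 0.46 with standardised score genes, 0.45 without Igtp and Ifi47, 0.28 with only them, 0.63 with averaged linear values, 0.25 with a pseudocount of 10, 0.38 with no filter, 0.46 with genes in at least 25% of cells, 0.37 after quantile normalization, 0.40 without mostly mitochondrial cells, 0.45 without Mar1, 0.41 matched on genes detected and 0.39 to 0.40 with 1 capture left out. Among the added alternatives it was 0.17 without Mar17, 0.32 without Apr13, 0.48 without Apr21, 0.41 with the tertile rounded up and 0.33 without Ifi27l2a in the score. The GTPase median, 0.77, was 1.92 with averaged linear values, 0.16 without Apr13 and 1.10 without Apr21. Of single genes, none of which passed the test, Slfn8 turned to -0.053 and Slfn9 to -0.19 with the score from Igtp and Ifi47 only, Slfn2 to -0.29 and Irf9 to -0.63 with averaged linear values, Irf1 to -0.18 without Mar1 and from -0.19 to 1.11 with 1 capture left out, Slfn8 to -0.043 and Irf1 to -0.23 without Apr13, and Slfn2 to -0.28 without Mar17. The cause of these shifts was not tested. Read depth is unknown, so no limit of detection is given.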
